A study of Mus musculus with 4 samples.

Results

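Meg3-positive cells were the single haematopoietic stem cells (HSC) of mouse bone marrow in which at least 1 unique molecular identifier (UMI, a tag that marks a cDNA before amplification) was assigned to the long noncoding RNA gene Meg3. A cell was kept if at least 1000 genes had a count above 0. Of 188 kept cells, 52 were Meg3-positive and 136 had no Meg3 UMI (Meg3-zero cells). Since Meg3 counts chose the cells, every Meg3 value below is a description and was not tested. The cells came from 4 libraries, 2 labelled Mat KO and 2 labelled wild type (WT), all of sorted HSC from bone marrow. Single cells were picked by mouth pipette, per the labels, and profiled with a modified STRT-seq method that primes on poly(A) tails. The labels give no strain, age, treatment or sort markers, and leave unstated what the Mat KO animals lack. Whether the libraries of a genotype come from different animals is not stated either, so the p-values rest on library-to-library spread that could be technical. By the female-expressed RNA Xist (at least 10 UMIs) and Y-linked genes (at least 5 UMIs), each library held cells of both sexes. Each library thus held cells of more than 1 animal. Of the Meg3-positive cells, 1, 5, 5 and 4 per library were female by this rule, 2, 4, 10 and 6 male, and the others were not assigned; sex was not a term in the tests.

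Meg3, also called Gtl2, lies in the imprinted Dlk1-Gtl2 locus, where the maternal chromosome makes long noncoding RNAs (Meg3, Rian and Mirg) that host many small RNAs, and the paternal chromosome makes the protein-coding genes Dlk1, Rtl1 and Dio3. In mouse bone marrow the locus is known for its activity in long-term HSC, the quiescent cells that sustain the blood system. Long-term HSC divide rarely, while progenitors that enter the cell cycle switch on genes of DNA replication and mitosis.

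The kept cells held between 1768647 and 3253608 UMIs per library. UMIs over-counted molecules: rare spike-in RNAs (detected in no more than 20% of wells) averaged 5.18 to 7.37 UMIs per positive well, with medians of 3 to 3.5. Intervals on shares below are exact (Clopper-Pearson) 95% intervals and cover counting error only. Cell barcodes were numbered alike in the 4 libraries, and 44 barcode numbers had a kept cell in all of them. Granulocyte, lymphoid or erythroid genes were present in some sorted cells of every library. A cell was called lineage-positive if at least 0.5% of its UMIs, from at least 3 markers, fell in the granulocyte and monocyte, B-lymphoid, T and NK or erythroid list.

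Meg3 transcripts were found in a minority of cells of every library, at very uneven UMI counts. Meg3-positive cells were 8 of 44 cells in Mat KO replicate 1 (18.2%, interval 8.19% to 32.7%) and 10 of 48 in Mat KO replicate 2 (20.8%, 10.5% to 35%). They were 19 of 48 in WT replicate 1 (39.6%, 25.8% to 54.7%) and 15 of 48 in WT replicate 2 (31.2%, 18.7% to 46.3%). Both WT shares were above both Mat KO shares, with overlapping intervals. One further well of Mat KO replicate 1 had Meg3 but too few genes to be kept. Meg3 lies at chromosome 12, 109541001 to 109571726 on the plus strand (GRCm38/mm10, GENCODE M21), where it is annotated as a long intergenic noncoding RNA.

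The order of the genotypes did not hold at equal depth. Median UMIs per Meg3-positive cell were 17632 (Mat KO replicate 1) and 23625 (Mat KO replicate 2), against 43036.5 and 29065 in the Meg3-zero cells of the same libraries. In WT replicates 1 and 2 they were 66068 and 56363, against 51630 and 49939. Spike-in UMIs moved the same way, with medians of 31684 and 37210 in Mat KO cells with Meg3 against 43794.5 and 45600 without, and 61827 and 54871 in WT against 51779 and 43812. Meg3-positive cells were thus the shallower cells in both Mat KO libraries and the deeper ones in both WT libraries. When each cell was thinned to 8800 UMIs, 47 of the 52 Meg3-positive cells were deep enough to enter and 28 kept a Meg3 UMI. The share of cells with Meg3 was then 12.8% and 22.0% for the Mat KO libraries, beside 17.4% and 13.6% for WT, so the genotypes overlapped. At 20000 UMIs per cell, which fewer cells reach, it was 9.68% and 20% for the Mat KO pair and 22.9% and 16.2% for the WT pair, which also overlapped. Depth moved with the share, and their relation was not tested further.

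**Figure D1:**
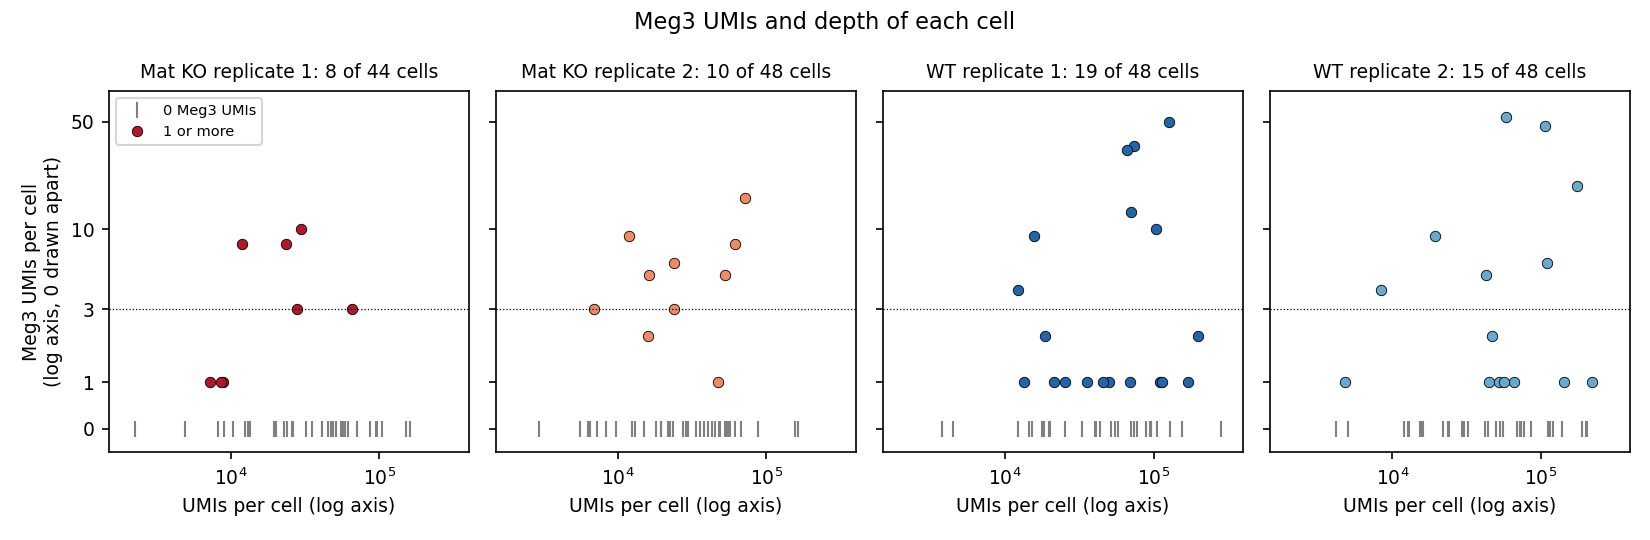
Meg3 UMIs (vertical, log axis, with 0 drawn apart) against total UMIs (horizontal, log axis) of each kept cell, in 1 panel per library; ticks are Meg3-zero cells, points are Meg3-positive cells and the dotted line marks 3 UMIs. Counts of 33 and above occur in 5 cells, all in the WT libraries, and cells with 1 UMI number 3 and 1 in the Mat KO and 10 and 7 in the WT libraries.

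Within the Meg3-positive cells, counts ran from 1 to 10 UMIs in Mat KO replicate 1 (median 3), 1 to 16 in Mat KO replicate 2 (median 5), 1 to 50 in WT replicate 1 (median 1) and 1 to 54 in WT replicate 2 (median 2). Just inside the limit lay 21 cells with exactly 1 UMI, and outside it the Meg3-zero cells had 0. Another 4 cells had 2 UMIs and 27 had 3 or more. The 8 cells with over 10 UMIs held 64.5% of all 414 Meg3 UMIs. By library, 0%, 10%, 21.1% and 20% of Meg3-positive cells had over 10 Meg3 UMIs. Rare spike-ins had over 10 UMIs in 20.3%, 13.8%, 18.1% and 28.2% of their positive wells. They had 1 or 2 UMIs in 47.5%, 46.0%, 45.8% and 45.5%. Whether cells with 3 or more Meg3 UMIs held more Meg3 molecules than cells with 1 or 2 was not tested. The single highest cell of each library held 28.6%, 27.6%, 29.8% and 35.3% of that library's Meg3 UMIs, in the order above. Summed over Meg3-positive cells, Meg3 made up 192, 176, 125 and 132 UMIs per 1e6 UMIs (CPM), so the Mat KO libraries were the higher pair on this scale. Over the cells with at least 3 Meg3 UMIs the order was the opposite, at 203, 206, 328 and 276 CPM. The level of Meg3 by genotype thus turned with the limit set on Meg3 itself.

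Barcode numbers with Meg3-positive cells recurred between libraries. Of 33 such numbers, 18 had a Meg3-positive cell in 1 library, 11 in 2 and 4 in 3. With shares of 18.2% to 39.6% Meg3-positive cells per library, some recurrence would also arise among unrelated libraries. The count to be met by that alone was not computed, so the recurrence was not tested. For 3 Meg3-positive cells the same number held at least 10 times more Meg3 UMIs in another library. Without those 3 cells the test of all genes below gave the same count of calls, 0.

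Other transcripts of the locus were rare in these cells, and nearly all Rian and Mirg UMIs came from 1 Meg3-positive cell each. Rian, a maternal noncoding RNA that hosts C/D box small nucleolar RNAs (chromosome 12, 109603940 to 109661716), was found in a single cell, of Mat KO replicate 2, with 25 UMIs beside 16 of Meg3. Mirg, a host of microRNAs (chromosome 12, 109729764 to 109749460), had 45 UMIs in 1 cell of WT replicate 1 with 50 Meg3 UMIs, and 1 UMI in each of 2 Meg3-zero cells. The paternal gene Dlk1, which codes for a transmembrane protein related to Notch ligands (chromosome 12, 109452823 to 109463336), was seen in 7 Meg3-positive cells and 11 Meg3-zero cells. Rtl1 and Dio3 had no UMI in any cell. The small RNA transcripts AF357355 and AF357425 had 2 UMIs and 1 UMI, each in 1 Mat KO cell with Meg3. No maternal or paternal gene of the locus other than Meg3 had enough counts to be tested. Of 14 genes that flank the locus, 7 were tested, with 4 higher and 3 lower in Meg3-positive cells, a median log2 fold change of 0.03 and none past the threshold.

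The label of HSC held for these cells by its markers. Hlf, a transcription factor of stem cells, was detected in 52 of 52 Meg3-positive and 113 of 136 Meg3-zero cells. The stem cell factor receptor gene Kit was detected in 50 of 52 and the pan-leukocyte gene Ptprc (CD45) in 48 of 52. Mecom, a transcription factor required by long-term HSC, was found in 34 Meg3-positive and 61 Meg3-zero cells, and the endothelial protein C receptor gene Procr in 28 and 57. Markers of endothelium (Cdh5), of stroma (Cxcl12 and Col1a1) and of T cells (Cd3e) had no UMI in any Meg3-positive cell. Elane, a neutrophil granule protease, was seen in 1.

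Pooled over libraries, cells with 1 or 2 Meg3 UMIs were more often lineage-positive than cells with more, a contrast that was not tested. By library, in the order above, 3 of 3, 0 of 2, 4 of 12 and 3 of 8 cells with 1 or 2 were lineage-positive. With 3 or more they were 1 of 5, 0 of 8, 0 of 7 and 0 of 7, so Mat KO replicate 2 had no difference. Lineage-positive cells made up 39 of 136 Meg3-zero cells (28.7%), 10 of 25 cells with 1 or 2 Meg3 UMIs (40.0%) and 1 of 27 cells with 3 or more (3.70%). Seen the other way, at least 1 Meg3 UMI was found in 11 of 50 lineage-positive cells (22.0%, interval 11.5% to 36.0%) and in 41 of 138 other cells (29.7%, 22.2% to 38.1%). At least 3 were found in 1 of 50 (2.0%, 0.0506% to 10.6%) and 26 of 138 (18.8%, 12.7% to 26.4%). Median depths of the lineage-positive and other cells were close, at 39332 and 43267 UMIs. These intervals pool the libraries, and Mat KO replicate 1 alone gave 4 Meg3-positive and 22 Meg3-zero of the 50 lineage-positive cells. By library, lineage-positive cells were 20%, 0%, 0% and 0% of cells with at least 3 Meg3 UMIs against 61.1%, 18.4%, 20.7% and 12.1% of Meg3-zero cells, lower in 4 of 4 (exact two-sided permutation test, p = 0.12, the smallest possible). Cells with at least 3 Meg3 UMIs are also described on their own below, a comparison that was given its own place after the data were seen.

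At the level of single cells, Meg3-positive cells carried more long-term HSC transcripts. This list holds 45 genes, among them Procr, Hlf, Mecom, Fgd5 and Ifitm1. Over all cells, its median share of a cell's UMIs was 0.659% in Meg3-zero cells, 0.752% with 1 or 2 Meg3 UMIs and 1.06% with 3 or more. At 8800 UMIs per cell, the medians of Meg3-positive against Meg3-zero cells were 1.08% against 0.534% in Mat KO replicate 1, 0.852% against 0.670% in Mat KO replicate 2, 0.864% against 0.773% in WT replicate 1 and 0.989% against 0.614% in WT replicate 2. The Meg3-positive median was the higher in 4 of 4 libraries, with a mean difference of 0.298 percentage points (exact two-sided permutation test within libraries, p = 0.12, the smallest that 4 libraries allow). Among cells that were not lineage-positive the mean difference was 0.359 points, again higher in 4 of 4. The lowest shares among Meg3-positive cells were 0.0607% and 0.0632%, in a cell of WT replicate 1 and one of WT replicate 2 that were lineage-positive with 1 or 2 Meg3 UMIs. The Rian-positive cell of Mat KO replicate 2 had 0.156% of its UMIs in long-term HSC genes and 0.386% in B-lymphoid markers, and was not lineage-positive by the limits used.

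**Figure D2:**
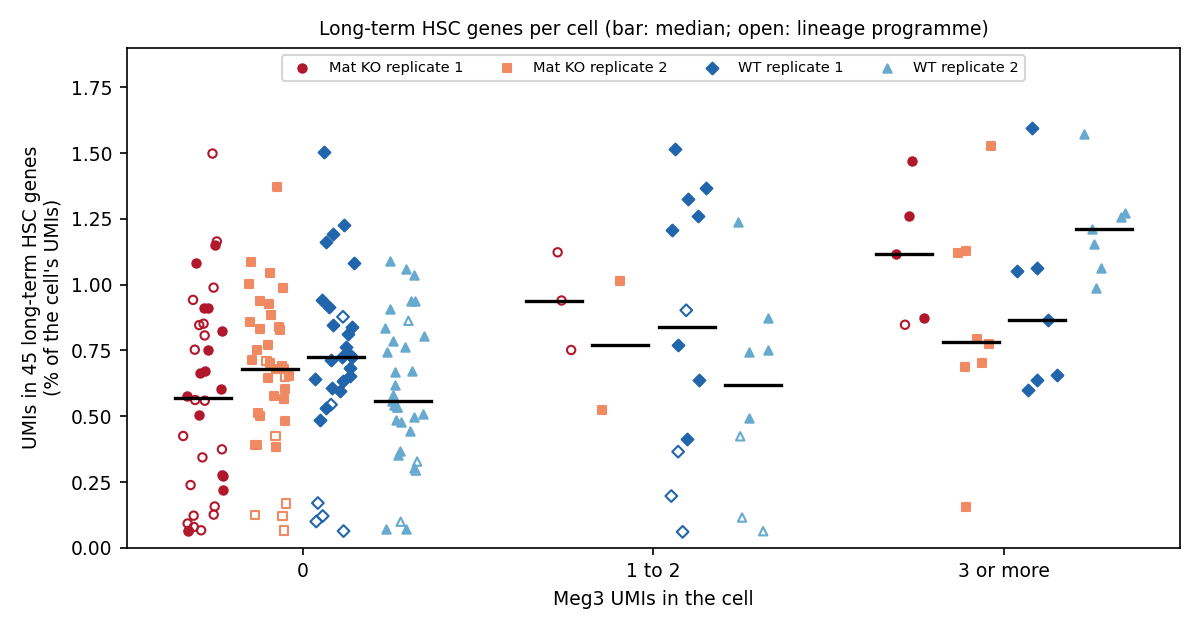
Share of each cell's UMIs in the 45 long-term HSC genes (vertical, percent), by Meg3 UMIs in the cell (horizontal) and library (colour and shape), without thinning; bars are medians and open symbols are lineage-positive cells. The median of cells with 3 or more Meg3 UMIs is above that of Meg3-zero cells in all 4 libraries.

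Genes of G2 and mitosis went the other way. At equal depth their median share was 0.193% against 0.375%, 0.193% against 0.250%, 0.193% against 0.239% and 0.239% against 0.398%, with the libraries in the same order. The Meg3-positive median was the lower in 4 of 4 libraries, with a mean difference of -0.111 points (exact p = 0.12). Without thinning it was lower in 3 of 4. S phase genes were lower in 3 of 4 and tied in the other (mean difference -0.0653 points, exact p = 0.25). Imprinted genes on other chromosomes, immediate early genes, cytosolic ribosomal proteins and the nuclear-retained RNA Malat1 were higher in 4 of 4 libraries at equal depth, and nuclear genes of oxidative phosphorylation lower in 4 of 4, each with exact p = 0.12. Genes per cell at equal depth did not keep an order (higher in 1 of 4 libraries, exact p = 0.25). In all, 28 measures were compared in this way, and 8 of them reached this smallest p, with a Benjamini-Hochberg adjusted value of 0.438. No measure can pass a threshold of 0.05 with 4 libraries.

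The next question was which single genes separated Meg3-positive from Meg3-zero cells when counts were summed per library. With the 4 libraries as blocks and Meg3 itself left out, edgeR's quasi-likelihood test called 0 of 8873 genes in either direction at a Benjamini-Hochberg adjusted p under 0.05 (0% called). At an unadjusted p under 0.05, 96 genes were higher (1.08%) and 229 lower (2.58%), and DESeq2 called 3 higher and 2 lower. Without WT replicate 1 or WT replicate 2 there were 10 and 7 calls. The gene with the smallest p was Ifitm1, an interferon-induced membrane protein gene of long-term HSC. Its level in Meg3-positive cells was 2867, 1709, 1634 and 1667 CPM, against 726, 1050, 1394 and 752 CPM in the Meg3-zero cells of the same libraries. The Meg3-positive cells were the higher in each library, with a log2 fold change of 1.05 (SE 0.23) that did not pass (edgeR adjusted p = 0.818). Mecom (log2 fold change 1.37, SE 0.39), Malat1 (0.37, SE 0.10) and Pdzk1ip1, a membrane protein gene of long-term HSC (1.53, SE 0.46), also had positive values that did not pass. Hmgb2, a chromatin protein abundant in dividing cells, had a log2 fold change of -1.51 (SE 0.37), Top2a, the topoisomerase of mitotic chromosomes, -2.17 (SE 0.52), Incenp, a subunit of the chromosomal passenger complex, -2.56 (SE 0.62) and the histone gene Hist1h2ae -2.01 (SE 0.48). Their edgeR adjusted p was 0.818 in each case. Over all genes 4.03% were higher and 10.3% lower in 4 of 4 libraries.

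In the comparison singled out after the data were seen, genes were called between cells with at least 3 Meg3 UMIs and Meg3-zero cells. Mitotic genes and some granulocyte genes were lower in the summed counts of cells with at least 3, and several stem cell transcripts were higher. These 27 cells (5, 8, 7 and 7 in the libraries in the order above) were compared with the same 136 Meg3-zero cells. Of 7987 genes tested, 12 rose (0.15%) and 46 fell (0.576%) at an edgeR quasi-likelihood adjusted p under 0.05. This count uses edgeR's bias-adjusted dispersions, which were chosen after the default estimate had pooled all genes to 1 spread and called 12 and 73 (0.914%); 11 and 45 of the calls were shared. At an unadjusted p under 0.05 there were 431 (5.4%) and 550 (6.89%). All 12 genes that rose were higher in 4 of 4 libraries, and 42 of the 46 that fell were lower in 4 of 4, where 4.27% and 14.1% of all genes tested had such an order. Without 1 library in turn the calls were fewer: 4 without Mat KO replicate 1, 20 without Mat KO replicate 2, 12 without WT replicate 1 and 13 without WT replicate 2. Malat1, Hmgb2, Top2a and Nusap1 were the 4 genes called under each of 10 settings, which also included zero cells matched on depth and cells without a lineage programme. All 10 settings kept the limit of 3 Meg3 UMIs, so they do not test that choice.

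Malat1 (chromosome 19, 5795690 to 5802672, minus strand), an abundant nuclear long noncoding RNA, was the firmest of the genes that rose. It made up 22115, 22358, 27115 and 21426 CPM in cells with at least 3 Meg3 UMIs, against 15965, 14901, 17398 and 13031 CPM in Meg3-zero cells. The ranges of the 2 groups did not overlap over libraries. For this gene and those below, the share of all genes tested without such overlap was not computed. The log2 fold change of Malat1 was 0.66 (SE 0.06, edgeR adjusted p = 1.7e-07). It was 0.47 among cells without a lineage programme (adjusted p = 0.000996) and 0.48 against zero cells matched on depth (adjusted p = 0.00192).

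Among the stem cell genes that rose, Ifitm1 (chromosome 7, 140967221 to 140969825) reached 3002, 1843, 2464 and 3045 CPM against 726, 1050, 1394 and 752 CPM, without overlap between the groups (log2 fold change 1.48, SE 0.20, edgeR adjusted p = 0.000184). Hes1, a transcriptional repressor downstream of Notch, had 3673, 2724, 2568 and 1747 CPM against 920, 1425, 1071 and 1324 CPM (1.19, SE 0.19, adjusted p = 0.0015). Mecom (chromosome 3, 29951296 to 30548008) had 133, 352, 171 and 273 CPM against 40.2, 137, 35.3 and 69.3 CPM, with groups that overlapped over libraries although each library moved up (1.88, SE 0.42, adjusted p = 0.0292). Pdzk1ip1 rose by a log2 fold change of 2.09 (SE 0.42), with its largest gap in Mat KO replicate 1, at 716 against 43.7 CPM. Each of these except Mecom and Pdzk1ip1 was also called among cells without a lineage programme. With bias-adjusted dispersions none was called against zero cells matched on depth, where the log2 fold changes were 0.76 for Ifitm1, 1.19 for Hes1, 2.27 for Mecom and 2.03 for Pdzk1ip1 (edgeR adjusted p from 0.0769 to 0.228). The other genes that rose were B2m, the light chain of MHC class I (0.53), the ferritin heavy chain gene Fth1 (0.59), the ribosomal protein gene Rps28 (0.53), the nuclear receptor gene Rora (1.74), Trim14 (2.33), the phospholipase gene Pnpla7 (2.23) and 4930478L05Rik (3.82).

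Leading mitotic genes were lower in every library, at a small part of their level in Meg3-zero cells. Hmgb2 (chromosome 8, 57511907 to 57515999) had 323, 352, 452 and 392 CPM against 3280, 2553, 2186 and 2010 CPM (log2 fold change -2.59, SE 0.22, edgeR adjusted p = 1.3e-07). Top2a (chromosome 11, 98992943 to 99024189) had 6.33, 11.2, 32.0 and 48.0 CPM against 713, 760, 824 and 667 CPM (-4.56, SE 0.45, adjusted p = 5e-07). Nusap1, a protein of the mitotic spindle (chromosome 2, 119618298 to 119651244), had 12.7, 3.75, 4.26 and 11.5 CPM against 328, 227, 231 and 201 CPM (-4.81, SE 0.69, adjusted p = 0.000181). For none of the 3 did the groups overlap, and how many of all genes tested had that order was not computed. The proliferation marker Mki67 (-3.20, SE 0.47), the spindle motor gene Kif11 (-4.39, SE 0.78), the cytokinesis gene Prc1 (-4.57, SE 0.75) and 2810417H13Rik, which codes for a PCNA-binding factor (-5.41, SE 0.87), fell as well. Among cells without a lineage programme the values were -1.96 for Hmgb2, -3.95 for Top2a and -4.27 for Nusap1, each still called.

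Genes of granulocytes and pre-B cells also fell in the summed counts. The calprotectin genes S100a8 (log2 fold change -2.86, SE 0.30) and S100a9 (-3.20, SE 0.35), the granule genes Camp (-3.80, SE 0.65) and Ngp (-4.10, SE 0.66), and Retnlg, a resistin-like gene of neutrophils (-4.87, SE 0.80), were among 7 of 13 tested granulocyte and monocyte markers that fell. In Meg3-zero cells S100a8 ranged from 443 to 11520 CPM over libraries, and it was highest in Mat KO replicate 1, where 19 of 36 Meg3-zero cells passed the limit of the granulocyte and monocyte list. The gene had a UMI in every cell with at least 3 Meg3 UMIs and in 99.3% of Meg3-zero cells, so its presence alone did not separate cells. The median share of the whole granulocyte and monocyte list per cell did not keep an order: without thinning it was 0.263% against 0.535% in Mat KO replicate 1, but 0.116% against 0.102%, 0.137% against 0.111% and 0.100% against 0.0729% in the other libraries. Among cells without a lineage programme the log2 fold change of S100a8 was -0.56 and not called (edgeR adjusted p = 0.562). Those cells were chosen by the same marker lists, so this value is no separate test. The pre-B cell genes Igll1, Vpreb1 and Vpreb3 also fell, with values of -3.32, -3.50 and -3.88, and were not called among cells without a lineage programme. None of these pre-B cell genes was lower in 4 of 4 libraries. Of 10 tested B-lymphoid markers 0 were lower in 4 of 4, beside 14.1% of all genes tested.

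**Figure D3:**
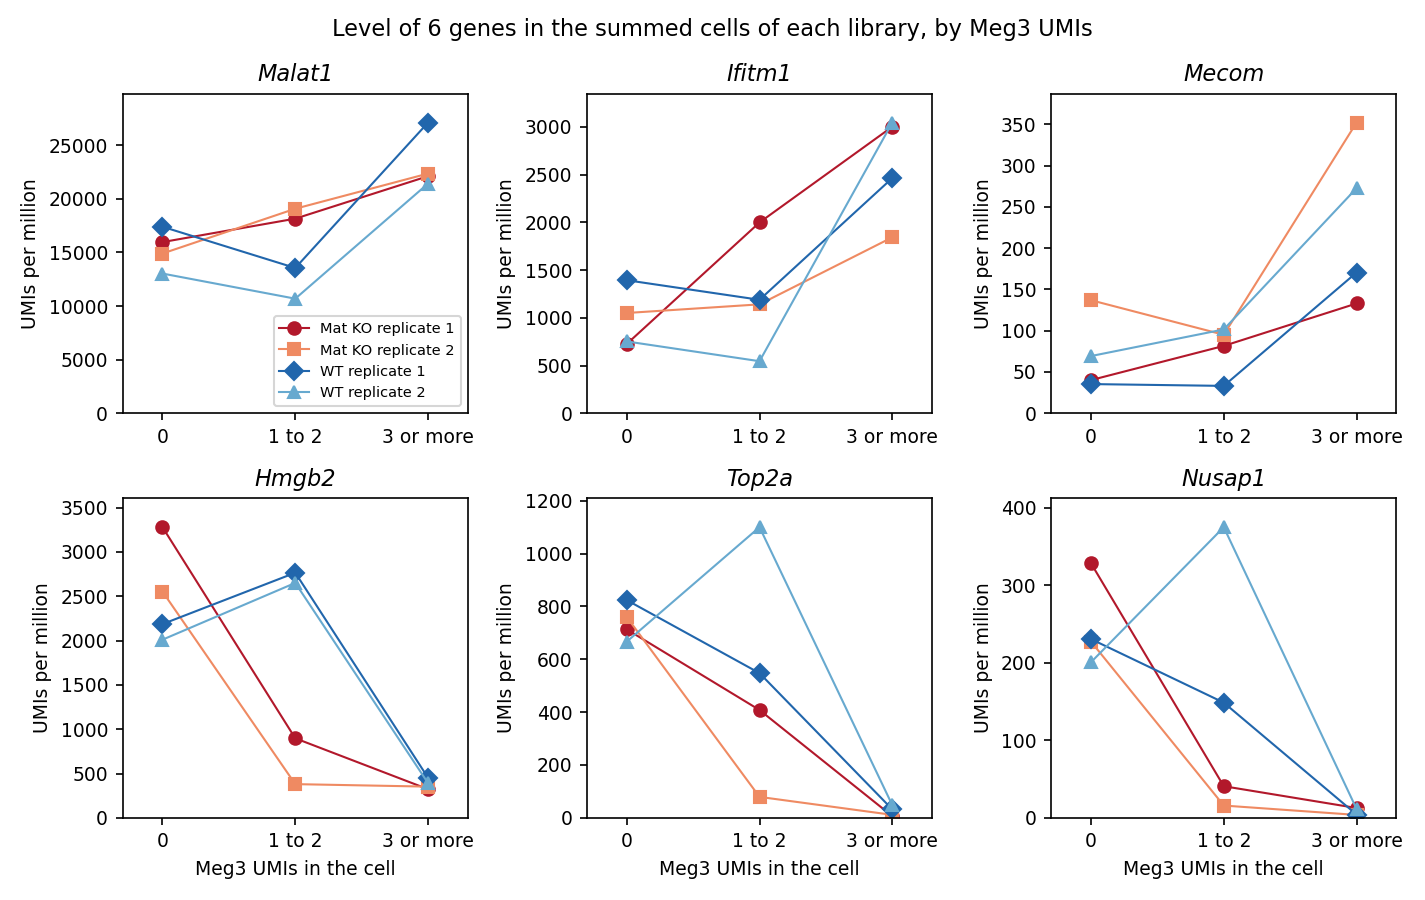
Level of 6 genes (vertical, CPM, from 0) in the summed cells of each library with 0, 1 to 2 and 3 or more Meg3 UMIs (horizontal); each line is 1 library. Cells with 1 to 2 UMIs are near Meg3-zero cells in the WT libraries, where Hmgb2 is at 2766 and 2651 CPM, and from there to 3 or more the lines run in the same direction in every library for each gene.

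In the WT libraries, cells with 1 or 2 Meg3 UMIs did not lie between the other groups for Hmgb2 and Malat1, although their median share of long-term HSC genes did. Hmgb2 was at 2766 and 2651 CPM in these cells and Malat1 at 13552 and 10687 CPM, on the far side of the Meg3-zero values from the cells with 3 or more. In the Mat KO libraries, with 3 and 2 such cells (all 3 of the former lineage-positive), Hmgb2 was at 897 and 380 CPM and Malat1 at 18152 and 19077 CPM. These values describe small sums and were not tested.

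Read as lists, cell cycle genes were mostly lower and long-term HSC genes mostly higher in both comparisons, which share cells and are not independent. In the comparison of all Meg3-positive cells, 49 of 50 G2 and M phase genes and 38 of 43 S phase genes were lower, with median log2 fold changes of -1.58 and -0.87, beside a median of -0.16 over all genes tested. Of the long-term HSC genes 34 of 43 were higher (median 0.31), and of the cytosolic ribosomal protein genes 71 of 77 (median 0.20), where 40.6% of all genes were higher. None of these list members passed. Fewer kept 1 direction in 4 of 4 libraries. There 13 of 50 G2 and M phase genes (26%) and 5 of 43 S phase genes (11.6%) were lower, beside 10.3% of all. Of the long-term HSC genes 7 of 43 (16.3%) were higher in 4 of 4, and of the ribosomal protein genes 15 of 77 (19.5%). Of all genes tested, 4.03% were. With at least 3 Meg3 UMIs, 47 of 47 G2 and M phase genes were lower (median -2.26) and 14 fell past the threshold, as did 3 of 36 S phase genes (median -1.46). Of 40 long-term HSC genes 35 were higher (median 0.75) and 3 rose past the threshold, while the median over all genes was -0.03. Of 77 ribosomal protein genes 72 were higher and 1 rose. Of all 7987 genes in this comparison 48.6% were higher, 0.15% rose past the threshold and 0.576% fell past it. Dnmt1, the maintenance DNA methyltransferase (-2.29), and Uhrf1, its partner at replicating DNA, were the 2 of 19 chromatin and imprint regulators that fell.

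**Figure D4:**
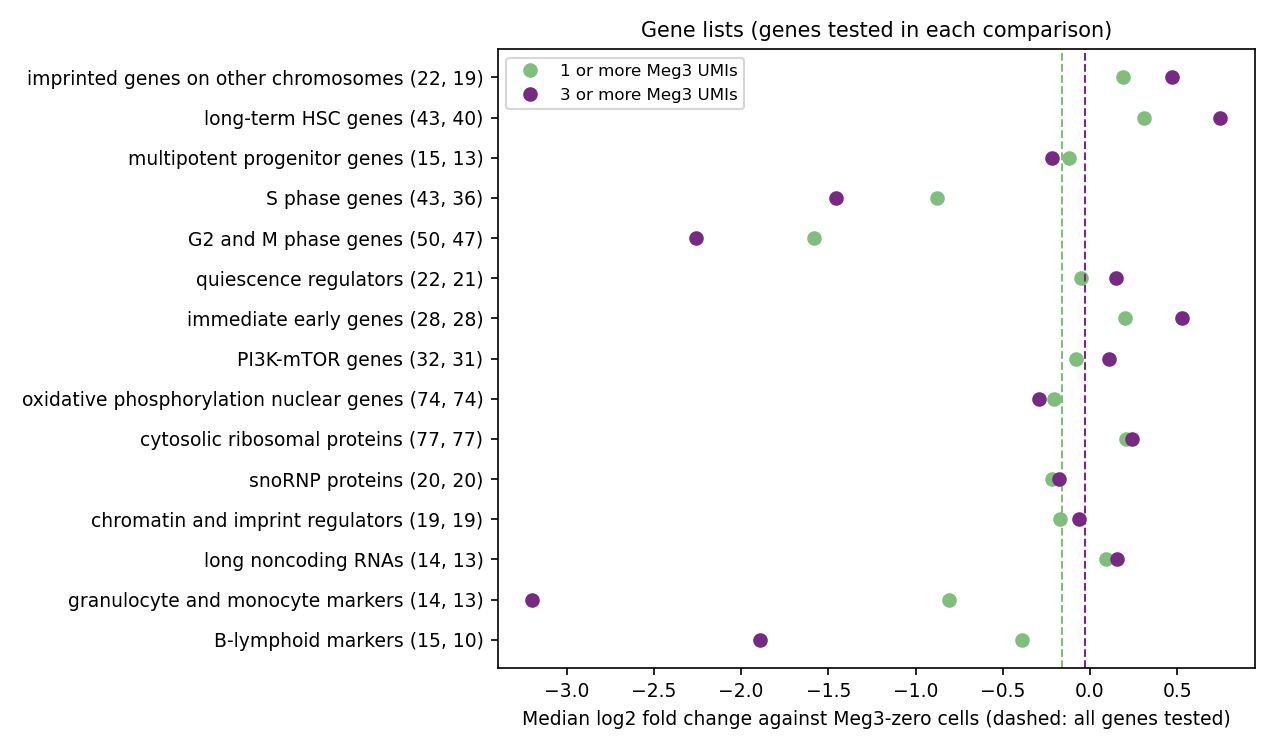
Median log2 fold change against Meg3-zero cells (horizontal) of each gene list with at least 10 tested genes in both comparisons (vertical, with the number tested in each); green points are all Meg3-positive cells, purple points are cells with 3 or more Meg3 UMIs, and dashed lines are the medians over all genes tested. The G2 and M phase and granulocyte lists lie lowest, and the long-term HSC list lies highest, in the comparison of cells with 3 or more.

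Other lists had smaller medians. Imprinted genes on other chromosomes were higher in 16 of 22 (median 0.19) and in 16 of 19 with at least 3 Meg3 UMIs (median 0.47), with none past the threshold. Regulators of quiescence split 10 higher and 12 lower (median -0.05), PI3K-mTOR genes 13 and 19 (median -0.08), proteins of small nucleolar ribonucleoproteins 4 and 16 (median -0.22) and multipotent progenitor genes 6 and 9 (median -0.12). Nuclear genes of oxidative phosphorylation were lower in 52 of 74 (median -0.20), near the median over all genes. Of the immediate early genes 19 of 28 were higher (median 0.20), led by the stress genes Gadd45b (log2 fold change 1.19, SE 0.38) and Ier3 (1.16, SE 0.43), neither of which passed.

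The genotypes were then compared within Meg3-positive cells, 18 Mat KO and 34 WT in 2 libraries each. Of 7702 genes tested by edgeR's quasi-likelihood test, 1 rose in Mat KO (0.013%) and 0 fell (0%), with 221 (2.87%) and 475 (6.17%) at an unadjusted p under 0.05 and 23 and 19 called by DESeq2. The gene that rose was Rn45s, the 45S ribosomal RNA precursor, a repeated gene whose reads may be split between copies. It made up 80025 and 98175 CPM in the Mat KO libraries against 38802 and 45689 CPM in WT, without overlap (log2 fold change 1.15, SE 0.11, adjusted p = 0.00811). The Meg3-zero cells had the same order, at 63182 and 86742 CPM against 48013 and 51599 CPM. The call was lost when cells were thinned to equal depth (0.77, adjusted p = 0.0929), in cells without a lineage programme (0.95, adjusted p = 0.947) and when the cell with most counts of each gene was left out (0.94, adjusted p = 0.0956). Hmgb2 had 400 and 358 CPM against 1958 and 1638 CPM, without overlap, but did not pass (-2.19, SE 0.29, adjusted p = 0.0706). Top2a (-3.56, SE 0.58), the pre-B cell gene Igll1 (-4.15, SE 0.64) and Hes1 (1.20, SE 0.27) did not pass either. Leaving out 1 library raised the calls to 277 without Mat KO replicate 1, 247 without Mat KO replicate 2, 19 without WT replicate 1 and 15 without WT replicate 2, where the lone library of a genotype is assumed to vary like the other pair. Of all genes, 13.5% were higher and 26.7% lower without overlap between the genotypes.

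Finally, the step from Meg3-zero to Meg3-positive cells was compared between genotypes. The interaction of class and genotype passed for 41 of 8873 genes by edgeR's quasi-likelihood test, 2 with a more positive step in Mat KO (0.0225%) and 39 with a more negative one (0.44%). Of the 41, 16 were markers of other cell types, from lists that include those behind the lineage programme, and 8 were S, G2 or M phase genes. Ly6c2, a monocyte surface gene, had 16.4 and 27.3 CPM in Meg3-positive and 596 and 717 CPM in Meg3-zero cells of Mat KO, and 218 and 271 CPM against 4.89 and 12.9 CPM in WT. Its order was thus opposite in the genotypes, with an interaction log2 fold change of -9.70 (SE 0.75, adjusted p = 2.2e-09). The lysozyme gene Lyz2 (-5.03, SE 0.46) and the neutrophil gene Lcn2 (-7.08, SE 0.84) were of the same kind. In WT replicate 1, a single Meg3-positive cell, with 1 Meg3 UMI, had 38.1% of its UMIs in the granulocyte and monocyte list. The next highest share among Meg3-positive cells of that library was 3.0%. The interaction was not fitted with the cell with most counts of each gene left out. Hmgb2 had 400 and 358 CPM against 3280 and 2553 CPM in Mat KO, but 1958 and 1638 CPM against 2186 and 2010 CPM in WT (-2.66, SE 0.28, adjusted p = 9.5e-07), and Top2a gave -3.58 (SE 0.54). Rn45s (0.54, SE 0.06) and Arxes2 were the 2 positive calls. The value of Rn45s turned to -0.07 against zero cells matched on depth, and Arxes2 had no UMI in the Meg3-positive cells of WT replicate 2, so its fitted fold is not given. The count of calls was 76 without Mat KO replicate 1, 137 without Mat KO replicate 2 and 15 with zero cells matched on depth.

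Most of these calls were not made among cells without a lineage programme. There 2 genes passed, and of the 41 genes 30 could be tested and 1, Arxes2, passed. With bias-adjusted dispersions 7 genes passed in all cells and 0 among cells without a lineage programme, with 137 and 176 at an unadjusted p under 0.05. With default dispersions, Hmgb2 had an interaction log2 fold change of -0.29 among cells without a lineage programme, and Ly6c2 of -1.29. Those cells were chosen by marker lists that hold Ly6c2 and other genes called here. For such genes the loss of the call is no separate test. Lineage-positive cells were 4 of 8 Meg3-positive cells in Mat KO replicate 1, 0 of 10 in Mat KO replicate 2, 4 of 19 in WT replicate 1 and 3 of 15 in WT replicate 2. In the Meg3-zero cells of the same libraries they were 22 of 36, 7 of 38, 6 of 29 and 4 of 33.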

How the data were processed

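Single-cell RNA-seq of sorted HSC was deposited as 1 table per library of raw UMI counts per gene and well, per the labels. TopHat2 2.0.12, HTSeq and the build mm10 are listed in the submitters' processing notes; their settings, including the handling of multi-copy and antisense reads, are not given in the sources used here. The deposited counts were used as they are, after removing 92 ERCC and 3 RGC entries and summing 2 repeated symbols, which left 24409 genes in 96 wells per table. Cells were picked singly by hand and no doublet caller was run. No 2 cells had identical counts.

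The Meg3-positive cells, gene lists and comparisons were chosen with earlier results of these data known. Counts were summed per library and class, Meg3 was removed, and genes passing filterByExpr were tested with edgeR 4.0.16 (TMM, quasi-likelihood, Benjamini-Hochberg threshold 0.05) in R 4.3.3, with library as a block where classes were compared and genotype alone within Meg3-positive cells. The comparison at 3 or more Meg3 UMIs was an alternative to that of all Meg3-positive cells. It was made a result of its own, with bias-adjusted dispersions, after the data were seen. DESeq2 1.42.0, other filters, depths, cell choices and leaving out each library were the alternatives. Thinning drew 8800 UMIs per cell (the 10th percentile, seed 1). Genes named are those of smallest p in each direction of each comparison and in each list, and detected genes of the locus. Replicate numbers did not pair libraries of the 2 genotypes (correlation of deviations 0.0109 over 7702 genes). On simulated counts, the test of Meg3-positive against Meg3-zero cells called 4% of 2-fold, 34% of 4-fold, 64% of 8-fold and 80% of 16-fold changes over 8873 genes. The test of genotype called 0%, 2%, 22% and 48% over 7702 genes. Coordinates are from GENCODE M21 on GRCm38.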

Additional observations from a re-analysis of the deposited data

Results flagged for a closer look

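Several measures of Meg3-positive minus Meg3-zero cells had opposite directions in the genotypes, with both libraries of each genotype on the same side. These differences between genotypes were not tested. The median number of UMIs per cell differed by -15420 in Mat KO and 10430 in WT, as means over libraries, and spike-in UMIs per cell by -10250 and 10550. Among cells with at least 8800 UMIs, the share of lineage-positive cells differed by -21.5 percentage points in Mat KO and 6.35 points in WT. Over all kept cells, Meg3-positive against Meg3-zero, it was 50% against 61.1% in Mat KO replicate 1 and 0% against 18.4% in Mat KO replicate 2. In WT replicate 1 it was 21.1% against 20.7%, nearly equal, and in WT replicate 2 20% against 12.1%. The share of UMIs in PI3K-mTOR genes differed by 0.0767 points in Mat KO and -0.0114 points in WT, and that in megakaryocyte markers by 0.0114 and -0.0114 points. The last 2 measures are at 8800 UMIs per cell, where 0.0114 points are 1 UMI. Without thinning the share of PI3K-mTOR genes was higher in Meg3-positive cells in 4 of 4 libraries and that of megakaryocyte markers in 2 of 4, so neither had opposite directions by genotype there. By a test of the difference itself, 41 genes passed the interaction of class and genotype in edgeR.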

How the results depend on the processing

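Alternatives with bias-adjusted dispersions, membership from thinned counts, the lineage limit of 1% and those of the comparison at 3 or more UMIs were chosen after seeing the data. For all Meg3-positive against Meg3-zero cells (0 calls), DESeq2 gave 5, no filter on low counts 17, cells without a lineage programme 5 (1 with bias-adjusted dispersions), a lineage limit of 1% 5, at least 3 Meg3 UMIs with default dispersions 85, and membership from thinned counts 12 (7 with bias-adjusted dispersions). Leaving out 1 library gave 0 to 10. For cells with at least 3 Meg3 UMIs (58 calls), cells without a lineage programme gave 10 (18 with default dispersions), zero cells matched on depth 11 (12 with default dispersions), and leaving out 1 library 4 to 20. For genotype within Meg3-positive cells (1 call), DESeq2 gave 42, no filter 80, equal depth 0, no lineage programme 0, the leading cell left out 0, bias-adjusted dispersions 2, and leaving out 1 library 15 to 277 (0 to 3 with bias-adjusted dispersions). With replicate number as a block it gave 37 calls, and 0 with the block and bias-adjusted dispersions; the numbers do not pair the libraries. For the interaction (41 calls), zero cells matched on depth gave 15, no lineage programme 2, bias-adjusted dispersions 7, both together 0, and leaving out 1 library 37 to 137. The default dispersions pooled all genes to 1 spread in several of these settings. The granulocyte share per cell (-0.0256 points) turned to 0.0112 at 20000 UMIs, 0.0085 without thinning and ran from -0.0492 to 0.0189 when 1 library was left out, the latter without Mat KO replicate 1. The mean share of cells with Meg3 at equal depth (17.4% Mat KO, 15.5% WT) was 35.4% in WT without thinning, 19.5% in WT at 20000 UMIs, and 5.0% and 7.71% for at least 3 UMIs. The interaction of Rn45s turned to -0.065 with zero cells matched on depth, and that of Cd52 to 0.68 and 0.92 among cells without a lineage programme. Of 1473 values for 68 genes in the comparison of all Meg3-positive cells, 51 in 17 genes changed sign, 0 of them past the threshold. Of 207 values for 24 genes at 3 or more UMIs, 99 kept the call, 108 lost it and 0 changed sign. The causes were not tested. There were 8 to 19 Meg3-positive cells per library, few UMIs of Meg3 per cell and 2 libraries a genotype. Changes of 2-fold and 4-fold were mostly below what these tests call. On simulated counts the test of genotype called 22% of 8-fold and 48% of 16-fold changes.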
